A study of Mus musculus with 10 samples.

Results

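Normal luminal and normal basal cells of the mouse mammary gland were compared gene by gene, and the genes that separate them are described by what their products do: transcription factors, receptors, secreted proteins, transporters and enzymes. The members of the comparison were the 3 arrays of control luminal cells and the 4 arrays of control basal cells, out of 10 arrays in the series. The other 3 arrays hold basal cells of Pygo2 SSKO mice, a mutant whose abbreviation the labels do not spell out. Both groups compared here are controls, and the genotype, strain and Cre status of the control mice are not given in the labels. The mice were virgin female littermates of the mutants, aged 8 to 12 weeks. Mammary tissue was digested with collagenase, cells that stained for the lineage markers CD31 (endothelium), CD45 (blood) or TER119 (erythroid cells) were discarded, and the rest were sorted by surface stain. Basal cells, a gate that also holds the mammary stem cells, were CD29-high and CD24-positive. Luminal cells were CD29-low, CD24-positive and CD61-negative, a gate the labels call mature luminal. The samples are called biological replicates, but the number of animals in each is not stated, and the p-values therefore rest on the spread of these samples, part of which may be technical.

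The ducts of the mammary gland are built of an inner luminal layer and an outer basal layer. Luminal cells line the lumen, sense ovarian hormones or make milk, and carry out vectorial transport across tight junctions. Basal cells are mostly contractile myoepithelial cells that resemble smooth muscle, rest on the basement membrane and help to build it, and include cells with stem cell activity in transplantation.

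RNA was measured on Affymetrix arrays, 1 for each sample, which give each probe set an intensity. Levels are given as log2(intensity + 16), and differences of dim genes are understated on that scale. Of 19933 genes with a probe set that carries a single gene symbol, 15814 were tested. The dimmest 25% of probe sets, those with a mean level over all 10 arrays under 6.74, were left out. A gene whose lower group has a mean under that level is said here to lie at the dim end, and the full size of its difference is not known. Calls were made with limma, a linear model fitted to all genes, where the adjusted p was under 0.05. Differences are luminal minus basal, on the log2 scale, with a standard error (SE). Levels of different genes are not compared with each other, since each probe set has its own response.

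Markers of the labelled cell type were high in each gate, and progenitor markers were also higher in the luminal one. All 20 basal and myoepithelial markers were lower in luminal cells, with a median difference of -3.82, and 16 of 17 mature luminal markers were higher, with a median of 2.73. The exception, Tnfsf11, had a difference of 0.25 (SE 0.23, adjusted p = 0.451). The luminal progenitor and alveolar list, which the label of a CD61-negative mature luminal gate does not name, had 8 of 14 members higher and 2 lower, with a median of 1.45 and mean levels of 8.34 to 8.96 in basal and 9.68 to 9.77 in luminal arrays. Kit, Elf5, Aldh1a3, Cd14, Ehf and Ltf were among the 8, and Itgb3 and Aldh1a1 were lower. The basal marker list had a mean level of 12.30 to 12.48 in the basal arrays. In luminal arrays 1 and 2 it was 8.12 and 7.80, and in luminal array 3 it was 9.44, so that 1 luminal array held more basal marker signal than the others. Krt5, a basal keratin, was 9.06, 7.70 and 11.68 in luminal arrays 1 to 3, against 13.22, 13.20, 13.22 and 13.55 in basal arrays 1 to 4. The fibroblast list was also lower in luminal cells for 10 of 11 tested members, with mean levels of 9.11 to 10.30 in basal and 6.85 to 7.36 in luminal arrays, and its members Tcf21 and Fap were at or under the dim level on average in basal cells. The pericyte list had 6 lower and 1 higher of 8 members, with mean levels of 8.70 to 8.94 and 7.84 to 8.08. Endothelial markers stood highest in basal array 1, at 9.82 against 8.27 to 8.67 in the other basal arrays and 7.80 to 8.23 in the luminal arrays, and 1 of 12 was called, lower. Of the immune list, 2 of 8 members were called, both lower, with mean levels of 7.14 to 7.56 and 6.79 to 7.13, and Ptprc, which encodes CD45, differed by -0.01. Spearman correlations over the genes tested were 0.932 to 0.963 within basal, 0.957 to 0.975 within luminal and 0.702 to 0.809 between basal and luminal arrays. In sorted bulk samples such as these, fewer cells of a type and less RNA per cell cannot be told apart.

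**Figure D1:**
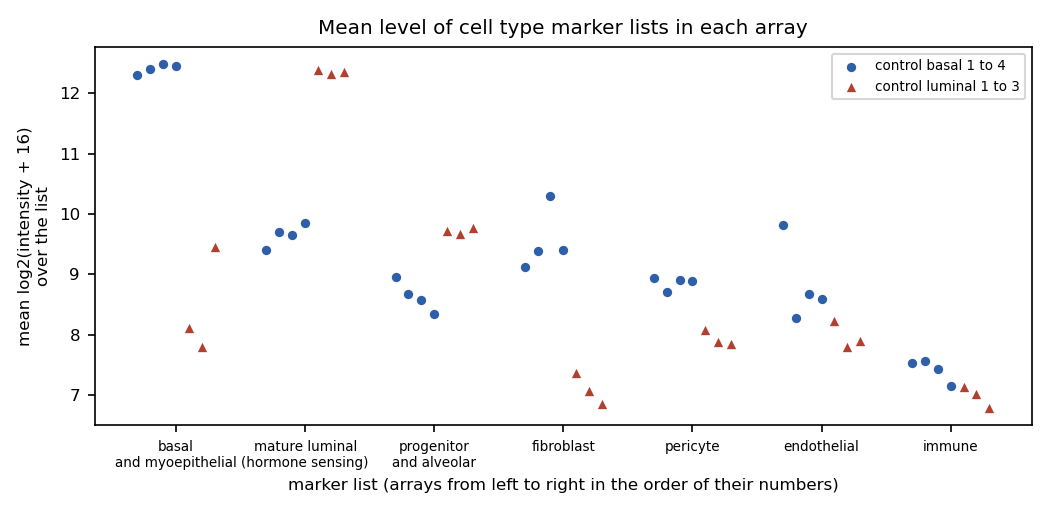
Mean level, as log2(intensity + 16), of 7 cell type marker lists in each of the 4 control basal arrays (blue circles, 1 to 4 from left to right) and 3 control luminal arrays (red triangles, 1 to 3). Basal markers stand at 12.30 to 12.48 in basal arrays and at 8.12, 7.80 and 9.44 in luminal arrays, and fibroblast markers at 9.11 to 10.30 against 6.85 to 7.36.

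The antigens of the sort chose the cells by surface stain, so their RNA is listed for reference and is no result. Itgb1, which encodes CD29, differed by -0.78, the direction of the gates. Itgb3, which encodes CD61, the antigen that luminal cells had to lack, differed by -2.47. Cd24a differed by 1.41, though both gates were CD24-positive, so the gates as stated do not set that difference.

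The compartments differed in a large share of the transcriptome. At the threshold, 3886 of 15814 genes (24.6%) were higher and 3114 (19.7%) were lower in luminal cells, 7000 (44.3%) in all. The median difference over all genes tested was 0.07. Differences of at least 4-fold were fewer and leaned to the basal side: 417 genes (2.64%) were higher in luminal cells by that much and 732 (4.63%) were lower. For 323 of the 732 the luminal mean lay at the dim end, as the basal mean did for 41 of the 417. The dim filter used the mean over all 10 arrays, of which 3 were luminal and the rest basal. Genes dim in luminal cells therefore passed it more easily than genes dim in basal cells, and these dim-end counts do not compare the compartments. With no filter 3979 genes were higher and 3124 lower. In 497 of the 732 genes luminal array 3 was the highest of the luminal arrays, by a median of 0.47 over the mean of the other luminal arrays in the whole set. The part of residual basal cells in this was not tested. The counts without that array were 3664 higher and 3055 lower.

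The genes with the largest differences included enzymes, secreted proteins and contractile proteins. Aoc1, the diamine oxidase that breaks down histamine and putrescine, had levels of 6.94, 8.58, 10.74 and 10.09 in basal arrays 1 to 4 and 14.99, 16.31 and 16.01 in luminal arrays 1 to 3. The luminal arrays lay far above the basal arrays, which themselves spread widely, and the difference was 6.68 (SE 1.15, adjusted p = 0.000638). Nrxn3, a neurexin known as a cell adhesion protein of synapses, had levels of 6.78, 7.09, 7.22 and 6.92 in basal arrays 1 to 4 and 13.04, 13.17 and 13.45 in luminal arrays 1 to 3. Its groups were tight and apart, with a difference of 6.22 (SE 0.25, adjusted p = 1.29e-08). Ido1, which breaks down tryptophan, differed by 5.92, the secreted glycoprotein gene Olfm4 by 5.90, the dipeptidase gene Dpep2 by 5.73 (3.00 as the mean of its probe sets) and Cdcp3 by 6.22. On the basal side Reln, which encodes the matrix glycoprotein reelin, had levels of 11.90, 11.34, 12.46 and 10.55 in basal arrays 1 to 4 and 5.64, 5.77 and 5.48 in luminal arrays 1 to 3. All 3 luminal arrays were at the dim end and far below the basal arrays, for a difference of -5.93 (SE 0.35, adjusted p = 1.81e-07). Smooth muscle contractile genes followed, with Myh11 (myosin heavy chain) at -5.81, Actg2 (enteric smooth muscle actin) at -5.79, with luminal arrays at the dim end, and Cnn1 (calponin) at -5.43.

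Among the genes tested, 3926 belonged to 1 of 5 functional classes defined by gene family symbols. Secreted proteins leaned most to the basal side, with 62 of 588 higher (10.5%) and 219 lower (37.2%), and 27% of them differed by at least 4-fold, against 7.27% of all genes tested. Receptors leaned the same way, with 55 of 480 higher (11.5%) and 147 lower (30.6%). Transporters were split, with 173 of 625 higher (27.7%) and 132 lower (21.1%), and had more differences of at least 4-fold on the luminal side, 46 against 39. Enzymes had 398 of 1459 higher (27.3%) and 342 lower (23.4%). Transcription factors had 166 of 774 higher (21.4%) and 159 lower (20.5%), shares near those of all genes, and 4.78% of them differed by at least 4-fold. Without the numbered zinc-finger (Zfp) genes, 15.5% of factors were higher, 23.3% lower and 6.64% at least 4-fold apart. Class medians were -0.16 for secreted proteins, -0.06 for receptors, 0.03 for transcription factors and 0.07 for transporters and for enzymes.

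**Figure D2:**
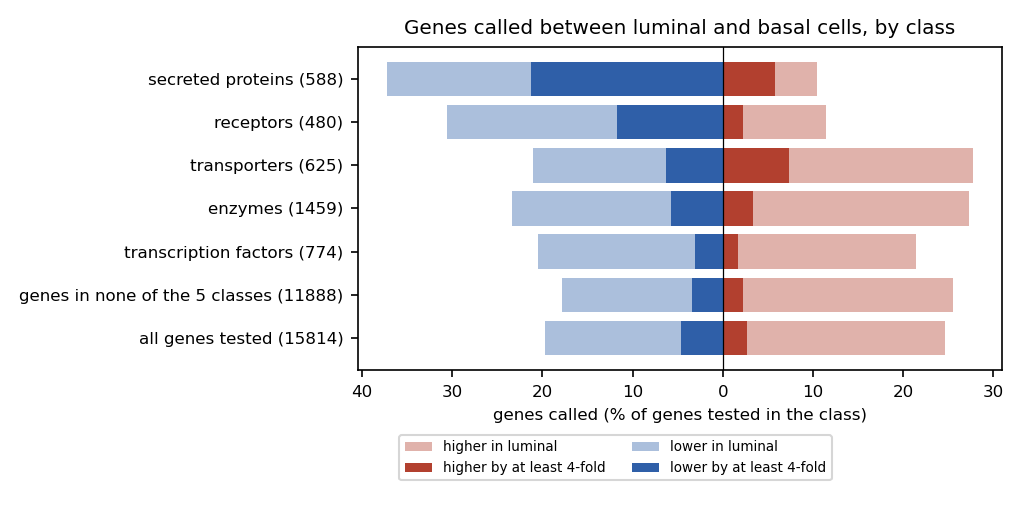
Percentage of the genes tested in each class that were called lower (blue, to the left) or higher (red, to the right) in control luminal against control basal cells, with the share that differed by at least 4-fold in the darker shade and the number tested in brackets. Secreted proteins reach 37.2% lower and 10.5% higher, whereas all genes stand at 19.7% and 24.6%.

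Among transcription factors the largest luminal rises were those of Foxa1 and Pgr. Foxa1, a forkhead pioneer factor that opens chromatin for oestrogen receptor, had levels of 8.87, 9.16, 9.44 and 9.09 in basal arrays 1 to 4 and 14.55, 14.52 and 14.40 in luminal arrays 1 to 3. The groups were tight and did not overlap, and the mean was 40.7-fold higher in luminal cells, a difference of 5.35 (SE 0.18, adjusted p = 7.83e-09). Pgr, the progesterone receptor, had levels of 8.13, 7.84, 7.92 and 8.48 in basal arrays 1 to 4 and 12.23, 12.40 and 12.15 in luminal arrays 1 to 3. All luminal arrays were far above all basal arrays, with a difference of 4.17 (SE 0.20, adjusted p = 4.24e-08). Esr1, the oestrogen receptor alpha gene, was 11.81, 11.72 and 12.42 in luminal arrays 1 to 3, against 8.41, 9.42, 9.12 and 10.06 in basal arrays 1 to 4, so the groups were apart, while the basal arrays spread more widely than the luminal ones. Its difference was 2.73 (SE 0.33, adjusted p = 5.25e-05). The homeobox gene Msx2 (3.85), the orphan nuclear receptor gene Esrrb (3.79, basal mean at the dim end), Zfp810 (3.14) and the epithelial ETS factor gene Ehf (2.88) completed the largest rises.

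On the basal side Id4, an inhibitor of basic helix-loop-helix factors, had levels of 10.94, 11.31, 10.50 and 10.96 in basal arrays 1 to 4 and 5.88, 5.38 and 5.73 in luminal arrays 1 to 3. Every luminal array was at the dim end, and the difference was -5.26 (SE 0.19, adjusted p = 8.85e-09). Snai2, the zinc-finger repressor also called Slug, had levels of 12.12, 11.71, 12.21 and 12.56 in basal arrays 1 to 4 and 6.51, 6.24 and 9.23 in luminal arrays 1 to 3. Luminal array 3 stood well above the other luminal arrays and still below every basal array, and the difference went from -4.82 to -5.77 without it. Irx4, an Iroquois homeobox gene, had levels of 11.26, 11.35, 11.34 and 11.28 in basal arrays 1 to 4 and 6.02, 5.28 and 8.34 in luminal arrays 1 to 3. The same array was again the highest luminal one, and the difference went from -4.76 to -5.66 without it. Trp63, whose product p63 maintains basal layers of epithelia, was 6.86, 7.60 and 9.98 in luminal arrays 1 to 3, against 10.98, 10.96, 11.45 and 11.39 in basal arrays 1 to 4. Its difference was -3.05 (SE 0.55, adjusted p = 0.000884), and -3.96 without luminal array 3. Tshz2 (-4.28, or -2.51 as the mean of its probe sets, luminal mean close to the dim level), the bZIP factor gene Maf (-3.42) and the immediate early gene Egr2 (-3.20) were the other large falls.

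**Figure D3:**
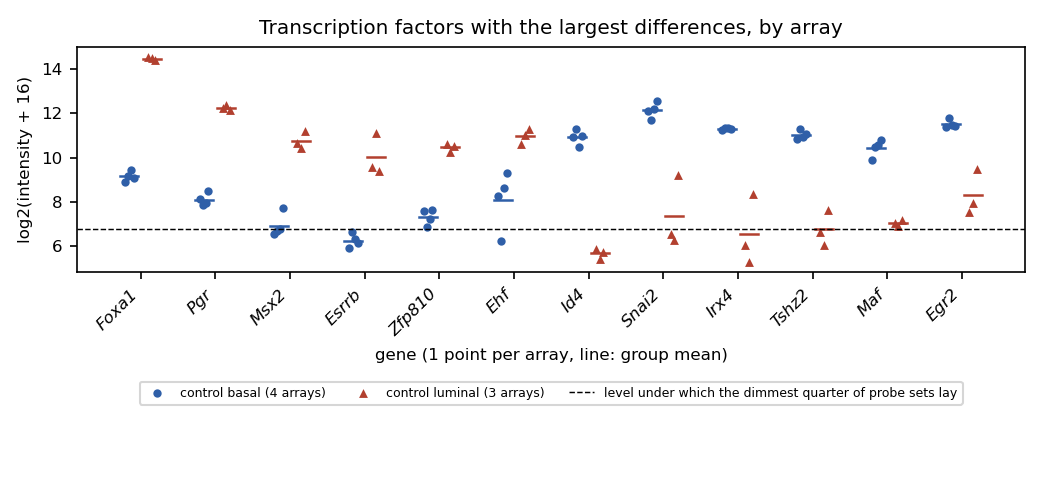
Level, as log2(intensity + 16), of the 6 transcription factor genes with the largest rises and the 6 with the largest falls, in each control basal array (blue circles) and control luminal array (red triangles), with group means as lines and the level of 6.74 dashed. Foxa1 stands at 14.40 to 14.55 in the luminal arrays and at 8.87 to 9.44 in the basal arrays, and 1 luminal array stands above the others for Snai2 and Irx4.

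The factor families were unevenly divided. Forkhead genes had 1 member higher (2.5%), Foxa1, and 9 lower (22.5%) of 40, with Foxn3 at -1.30. The share lower was near the 19.7% of all genes, and the share higher was under their 24.6%. The higher count was 3 without basal array 4, 4 with the replicate block, and 2 with a pseudocount of 64, a stricter dim filter or median centring. Nuclear receptors had 11 higher (30.6%) and 6 lower (16.7%) of 36, beside 24.6% and 19.7% of all genes, and 7 were higher without basal array 1, luminal array 1 or luminal array 3 and after quantile normalization. The stress-responsive Nr4a3 (-2.51) and Nr4a2 (-2.32) were their largest falls. Of the ETS genes, Elf5, the regulator of the alveolar fate, was 9.91, 9.96 and 10.03 in luminal arrays 1 to 3, against 7.78, 7.18, 7.25 and 6.63 in basal arrays 1 to 4. Its groups did not overlap and differed by 2.75 (SE 0.23, adjusted p = 2.71e-06), while the FGF-responsive Etv5 differed by -2.12. Gata3, a regulator of luminal fate, was bright in both compartments, at 11.38 to 11.81 in basal and 12.11 to 12.23 in luminal arrays, and its difference of 0.52 (SE 0.12, adjusted p = 0.00477) was small beside that of Foxa1. Stat5a (1.75) and Stat5b (1.67), which carry the prolactin signal, were higher. Nfatc1 (-1.52) and Nfatc2 (-1.39) were lower. T-box genes went both ways, with Tbx3, needed for mammary bud formation, at 1.36 and Tbx2 at -2.49 (luminal mean at the dim end). In the family of p53, RUNX, TEAD, AP-2 and GRHL factors, Tead2 (2.80) and Tfcp2l1 (2.79) were higher and Tfap2c (-2.52) was lower. Also lower were the WNT effector Tcf7l1 (-2.59), Mef2c (-2.85, luminal mean at the dim end) and the hypoxia factor gene Epas1 (-2.90). HOX genes had few calls, with 3 higher (10.3%) and 1 lower (3.45%) of 29. The numbered zinc-finger genes, a large family with many close copies, had 89 higher (32.1%) and 43 lower (15.5%) of 277. Their differences were small, with a median of 0.20 and 2 at least 4-fold apart in each direction. Without them, 77 of 497 factors were higher (15.5%) and 116 lower (23.3%), beside 24.6% and 19.7% of all genes.

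The letters of 10 short motifs were counted on both strands in the promoters of the genes with the largest differences, from 250 bases before to 50 after each start site in the RefSeq promoter table for GRCm38.p6. Of the 50 genes with the largest rises, 36 had a promoter there (47 promoters, since a gene can have several), as did 36 of the 50 with the largest falls (40 promoters) and 12459 of the genes tested (15659 promoters). The E2-box CAGGTG was in 40.4% of promoters of the rises, 27.5% of the falls and 19.7% of all. The TEAD motif GGAATG was in 14.9%, 25% and 12.7%. The FOX motif TGTTTAC was in 4.26%, 7.5% and 2.55%, the GATA motif AGATAA in 12.8%, 10% and 7.34%, and the RUNX motif TGTGGT in 17%, 10% and 13.1%. The ETS motif CCGGAAG was in 4.26%, 5% and 13.9%. The AP-1 motif TGANTCA was in 12.8%, 5% and 5.82%, and the STAT motif TTCNNNGAA in 4.26%, 7.5% and 6.9%. The serum response element known as the CArG box was in 0%, 2.5% and 1.35%, and the oestrogen response element in 0%, 0% and 0.0255%. These are shares of letters in a short window, with no test, and a match is not a binding site. The upstream parts of 4 of these promoters are printed as examples. Their genes had the largest or next largest difference of their class in 1 direction and hold the motif, shown in capitals. Cyp3a57, Capn8, Dkkl1 and Bmpr1b rank as high in their classes and also hold CAGGTG, but are not printed. Foxa1 (chr12:57546112-57546361, minus strand) and Slc44a4 (chr17:34914216-34914465, plus strand), higher in luminal cells, hold CAGGTG. Id4 (chr13:48260866-48261115, plus strand) and Mylk (chr16:34784700-34784949, plus strand), lower in luminal cells, hold CATTCC, which is GGAATG on the other strand.
Foxa1: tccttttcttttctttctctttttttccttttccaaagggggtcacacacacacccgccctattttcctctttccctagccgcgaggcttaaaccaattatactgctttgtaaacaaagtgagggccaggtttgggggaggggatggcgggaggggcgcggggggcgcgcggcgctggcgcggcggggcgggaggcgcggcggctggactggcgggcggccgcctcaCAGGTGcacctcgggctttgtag
Slc44a4: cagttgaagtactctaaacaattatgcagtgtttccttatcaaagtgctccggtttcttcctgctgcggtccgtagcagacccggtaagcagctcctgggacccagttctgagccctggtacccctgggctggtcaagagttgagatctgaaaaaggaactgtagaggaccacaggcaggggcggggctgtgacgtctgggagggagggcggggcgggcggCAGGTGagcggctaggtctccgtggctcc
Id4: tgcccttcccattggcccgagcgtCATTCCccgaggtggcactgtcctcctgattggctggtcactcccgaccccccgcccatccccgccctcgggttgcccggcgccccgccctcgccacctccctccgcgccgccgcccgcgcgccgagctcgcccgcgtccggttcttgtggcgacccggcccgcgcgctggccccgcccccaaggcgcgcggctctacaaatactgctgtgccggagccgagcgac
Mylk: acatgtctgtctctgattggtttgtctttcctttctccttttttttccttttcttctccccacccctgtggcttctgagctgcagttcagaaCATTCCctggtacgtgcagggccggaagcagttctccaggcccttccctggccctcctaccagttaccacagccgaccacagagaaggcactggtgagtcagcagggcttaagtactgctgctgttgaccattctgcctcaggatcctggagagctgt
The match starts 23 bases before the start site in Foxa1, 29 in Slc44a4, 226 in Id4 and 158 in Mylk.

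In each of the 10 receptor families more members were lower than higher in luminal cells. The share lower went from 17.1% in Toll-like and C-type lectin receptors to 56% in integrins, beside 19.7% of all genes. The counts of Toll-like and C-type lectin receptors, 4 higher and 6 lower, went to 5 and 5 after median centring, to 4 and 4 without basal array 3 and to 4 and 3 without luminal array 2. Among differences of at least 4-fold that family had 2 in each direction, and the TGF-beta receptors had 1 in each. Several single receptors had large luminal rises. Agtr1a, the angiotensin II receptor, had levels of 9.0, 7.45, 8.67 and 7.80 in basal arrays 1 to 4 and 12.58, 13.11 and 12.59 in luminal arrays 1 to 3. The groups were far apart, with a difference of 4.53 (SE 0.48, adjusted p = 1.82e-05). Bmpr1b, a receptor of bone morphogenetic proteins, had levels of 7.21, 7.40, 7.49 and 7.17 in basal arrays 1 to 4 and 11.11, 12.68 and 11.26 in luminal arrays 1 to 3. It differed by 4.37 (SE 0.31, adjusted p = 7.09e-07). Erbb3, the neuregulin receptor that partners with ERBB2, had levels of 8.46, 8.64, 9.20 and 9.81 in basal arrays 1 to 4 and 12.54, 12.83 and 12.59 in luminal arrays 1 to 3. Basal arrays 3 and 4 were the highest basal arrays and still below every luminal array, and the difference was 3.63 (SE 0.29, adjusted p = 1.97e-06). The interleukin-18 receptor gene Il18r1 (3.78, basal mean at the dim end), the receptor gene for vasoactive intestinal peptide Vipr1 (3.63, or 2.33 as the mean of its probe sets) and the sorting receptor gene Sort1 (3.45) were also higher.

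Many receptors of the basal side had luminal levels at or near the dim end. Lgr5, the R-spondin receptor known as a stem cell marker in several epithelia, had levels of 11.85, 11.76, 10.84 and 11.93 in basal arrays 1 to 4 and 7.37, 5.78 and 8.45 in luminal arrays 1 to 3. The groups did not overlap and differed by -4.39 (SE 0.50, adjusted p = 3.03e-05). Oxtr, the oxytocin receptor that triggers milk ejection in myoepithelial cells, was 6.94, 6.72 and 8.20 in luminal arrays 1 to 3, against 10.88, 11.87, 11.86 and 11.68 in basal arrays 1 to 4. It differed by -4.28 (SE 0.37, adjusted p = 3.35e-06). Sorcs1 (-4.97), the serotonin receptor gene Htr1d (-4.42), the ephrin receptor gene Ephb1 (-4.41, or -2.37 as the mean of its probe sets), and the integrin genes Itga9 (-4.39) and Itga1 (-4.29) were lower, all with luminal means at the dim end.

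Of 47 receptor tyrosine kinases, 23 were lower (48.9%) and 7 higher (14.9%), beside 19.7% and 24.6% of all genes. Axl, the GAS6 receptor, was 7.75, 7.62 and 9.37 in luminal arrays 1 to 3, against 12.43, 12.31, 12.34 and 12.38 in basal arrays 1 to 4. Its groups were apart, with a difference of -4.12 (SE 0.33, adjusted p = 2.15e-06), and Egfr, the receptor of EGF and amphiregulin, differed by -2.64. Kit, the receptor of stem cell factor and a marker of luminal progenitors, was on the other side, at 10.33 to 11.28 in luminal and 7.42 to 8.26 in basal arrays, and differed by 3.06 (SE 0.29, adjusted p = 7.03e-06). Of 25 integrins 14 were lower and 0 higher in limma at an adjusted p under 0.05 (1 higher at an unadjusted p under 0.05), with Itgb1 and Itgb3 of the gate among the lower ones. Receptors of TGF-beta ligands had 6 lower (46.2%) and 1 higher (7.69%) of 13, the rise being Bmpr1b. The co-receptor gene Tgfbr3 was at -4.06 and Tgfbr1 at -1.99. The higher count was 2 without basal array 4 or luminal array 2, with a pseudocount of 64, a stricter dim filter or a variance trend, and 3 with the replicate block. Guidance receptors had 10 lower (50%) and 2 higher (10%) of 20. Among them the SLIT receptor gene Robo2 was at -3.37 (luminal mean at the dim end) and the semaphorin receptor gene Plxna3 at 1.16. Notch3 was higher by 2.50 and is also a member of the pericyte list, whose other called members were lower. The scavenger and signalling receptor gene Lrp1 was lower, at -3.01. Of the TNF receptor superfamily, Tnfrsf11a, which encodes RANK, the receptor of the progesterone-induced ligand RANKL, was lower, at -2.39, and so was its decoy Tnfrsf11b (-2.30, luminal mean at the dim end). Pattern receptors were split, with Tlr3 (2.26) and Cd14 (2.23) higher and Tlr2 (-2.30) lower.

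Among secreted proteins the basal lean, as the share lower less the share higher, was largest in the 4 families of the extracellular matrix. Of all genes tested 19.7% were lower and 24.6% higher. Of 29 basement membrane genes 22 were lower (75.9%) and 2 higher (6.9%), the latter count being 1 without luminal array 3. The family median was -2.88, and 19 were lower by at least 4-fold. Of 47 matricellular, elastic fibre and proteoglycan genes 31 were lower (66%) and 2 higher (4.26%), with a median of -2.11. Of 44 collagens 22 were lower (50%) and 2 higher (4.55%), the latter count being 1 without basal array 1, 2 or 4 or luminal array 1 or 2. Of 39 matrix metalloproteinases and ADAMTS proteases 21 were lower (53.8%) and 0 higher in limma at an adjusted p under 0.05 (0 higher also at an unadjusted p under 0.05). Fibroblast markers, several of which are matrix genes of these same families, moved in the same direction: 10 of 11 were lower, their mean level was 9.11 to 10.30 in basal and 6.85 to 7.36 in luminal arrays, and basal array 3 was the highest. The part of fibroblast RNA in the matrix counts was not tested. A fit without luminal array 3 and basal array 1 together was added once the arrays had been looked at. In it 218 secreted proteins were lower and 60 higher. Basal array 1 had the lowest fibroblast mean of the basal arrays, at 9.11, so that fit does not address fibroblast RNA.

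Fmod, the collagen-binding proteoglycan fibromodulin, had levels of 11.49, 11.73, 11.81 and 11.46 in basal arrays 1 to 4 and 5.79, 5.36 and 6.25 in luminal arrays 1 to 3. The 4 basal arrays lay close together and the luminal arrays were at the dim end, a difference of -5.82 (SE 0.23, adjusted p = 1.29e-08). Fbln7, a fibulin, had levels of 11.31, 11.19, 11.07 and 10.55 in basal arrays 1 to 4 and 5.72, 5.58 and 6.28 in luminal arrays 1 to 3. It too was at the dim end in each luminal array and differed by -5.17 (SE 0.22, adjusted p = 1.82e-08). Mmp2, gelatinase A, had levels of 12.57, 13.20, 13.32 and 12.77 in basal arrays 1 to 4 and 8.33, 7.24 and 8.27 in luminal arrays 1 to 3. The difference was -5.02 (SE 0.27, adjusted p = 9.24e-08), or 32.4-fold higher in basal cells. Collagens with large falls were Col14a1 (-5.01) and the hemidesmosomal Col17a1 (-4.55), and the laminin-332 chain gene Lamb3 differed by -3.40. The fibroblast collagens were lower too, with Col1a1 at -3.50, and basal array 3 was the highest for it, at 11.97 against 10.11 to 10.91 in the other basal arrays. A few matrix genes were on the luminal side. Col8a1, a short-chain collagen, was 11.95, 11.58 and 11.71 in luminal arrays 1 to 3, against 8.27, 7.36, 7.46 and 7.25 in basal arrays 1 to 4, and differed by 4.16 (SE 0.31, adjusted p = 1.22e-06). Npnt, the integrin ligand nephronectin, differed by 1.62 and the laminin alpha 5 gene Lama5 by 0.56 (SE 0.16, adjusted p = 0.0133), a call that was lost without luminal array 3 (adjusted p = 0.0538). Without luminal array 3 and basal array 1 together Lama5 differed by 0.36.

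Growth factor families other than the FGF ligands leaned to the basal side. Large differences stood in both directions. Of all genes tested 19.7% were lower and 24.6% higher. Of 19 genes of the EGF family, IGFs and IGF-binding proteins, 11 were lower (57.9%) and 3 higher (15.8%), with a median of -1.35. Of 29 PDGF, VEGF, HGF and neurotrophic factor genes 15 were lower (51.7%) and 4 higher (13.8%). FGF ligands had 2 (9.09%) in each direction of 22 (4 higher without luminal array 3). Igfbp3, which binds insulin-like growth factors, had levels of 13.18, 12.87, 12.63 and 12.74 in basal arrays 1 to 4 and 7.52, 6.34 and 7.73 in luminal arrays 1 to 3. Its difference was -5.66 (SE 0.29, adjusted p = 6.25e-08). Hgf, the ligand of MET, had levels of 10.71, 10.72, 10.96 and 9.83 in basal arrays 1 to 4 and 5.12, 5.06 and 5.36 in luminal arrays 1 to 3. Each luminal array was at the dim end, with a difference of -5.37 (SE 0.32, adjusted p = 2.2e-07). In the EGF family the neuregulins were split: Nrg1 was 5.85, 5.49 and 7.04 in luminal arrays 1 to 3, against 11.26, 10.71, 11.22 and 11.06 in basal arrays 1 to 4, a difference of -4.94 (SE 0.30, adjusted p = 2.64e-07) with the luminal mean at the dim end, while Nrg4 was 9.16, 10.31 and 10.39 in luminal arrays 1 to 3, against 6.14, 6.49, 6.41 and 6.08 in basal arrays 1 to 4, a difference of 3.68 (SE 0.26, adjusted p = 7.84e-07), with basal arrays at the dim end. Betacellulin (Btc) was on the luminal side, at 3.10. Basal FGFs were Fgf2 (-4.51, luminal mean at the dim end) and Fgf1 (-2.68), and Fgf13, an intracellular FGF homologue that modulates sodium channels, was luminal at 2.32. Of 41 ligands and antagonists of the TGF-beta superfamily, 13 were lower (31.7%) and 5 higher (12.2%). The largest rises were the ligand genes Bmp3 (3.58) and Inhbb (3.25), an activin chain, and the largest falls were Fstl1 (-4.99) and the activin antagonist gene Fst (-4.96).

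**Figure D4:**
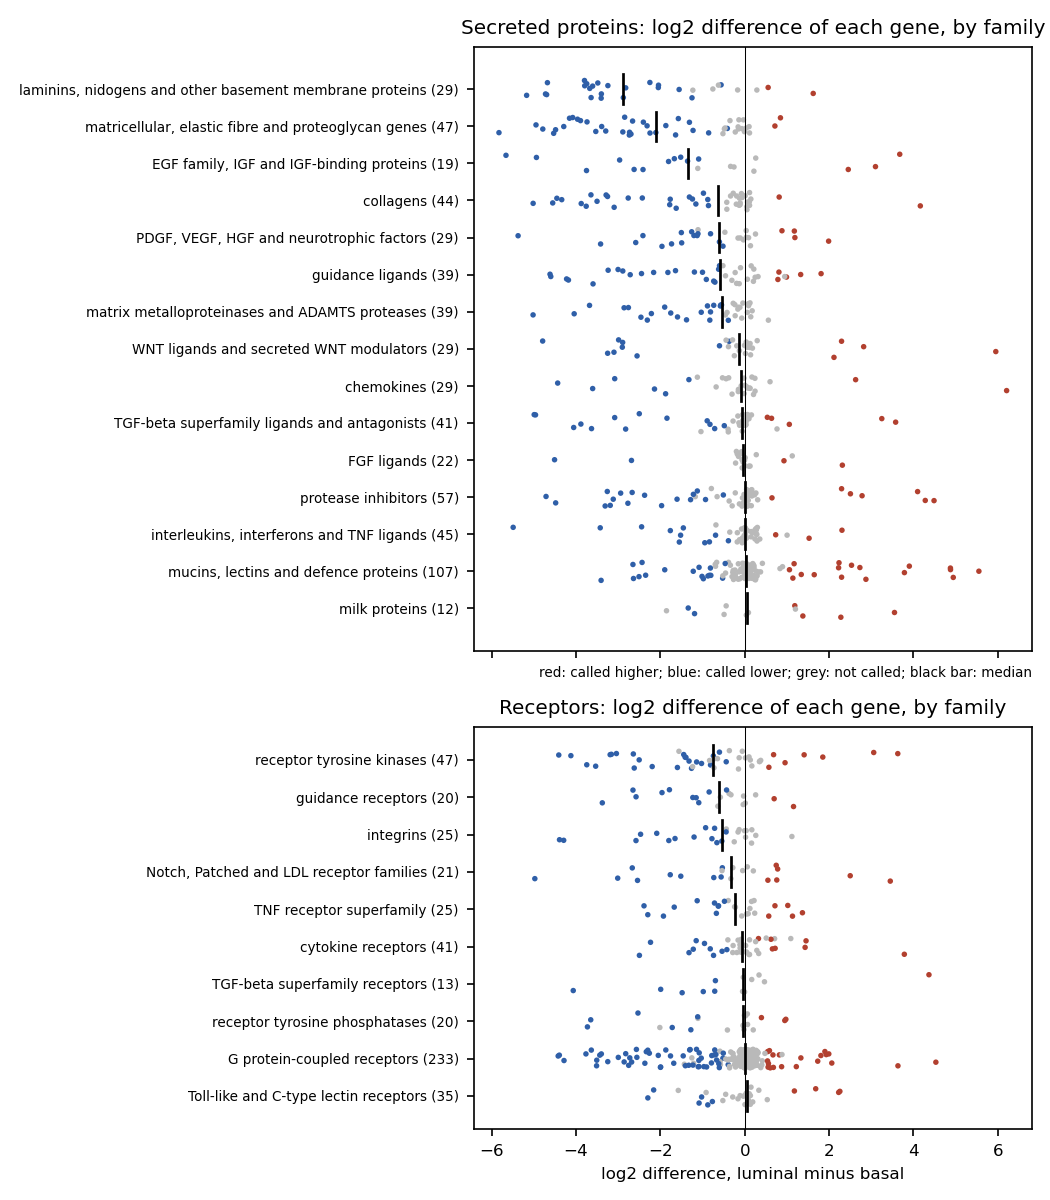
Log2 difference, luminal minus basal, of every tested gene in the 15 families of secreted proteins and the 10 families of receptors, coloured by its call, with the family median as a black bar and the number tested in brackets. Basement membrane genes have a median of -2.88 and matricellular genes one of -2.11, and most other family medians lie closer to 0.

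Of 29 WNT ligands and modulators 9 were lower (31%) and 4 higher (13.8%), beside 19.7% and 24.6% of all genes. At least 4-fold apart were 7 lower and 4 higher, and the family held a large difference in each direction. Dkkl1, a dickkopf-like secreted protein, had levels of 6.82, 7.18, 6.81 and 7.32 in basal arrays 1 to 4 and 13.17, 12.94 and 12.84 in luminal arrays 1 to 3. The arrays of each group lay close together, and the difference was 5.95 (SE 0.21, adjusted p = 8.81e-09). Wif1, a secreted inhibitor of WNT, had levels of 11.61, 11.31, 10.94 and 10.45 in basal arrays 1 to 4 and 6.64, 5.96 and 6.26 in luminal arrays 1 to 3. It differed by -4.79 (SE 0.29, adjusted p = 2.37e-07), with luminal arrays at the dim end. The ligands Wnt4 (2.30), induced by progesterone, and Wnt7b (2.82) were higher in luminal cells, and Dkk3 (-3.25) was lower. Axon guidance ligands, some of which stay in the membrane, had 20 lower (51.3%) and 5 higher (12.8%) of 39. Slit3 was at -4.60 (luminal mean at the dim end), Sema5a at -4.61 and Ntn1 at 1.33.

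Mucins, lectins and defence proteins held 12 of the 34 secreted proteins that were higher in luminal cells by at least 4-fold. In another family, the chemokines, Cxcl15 (lungkine) had levels of 5.95, 7.17, 8.23 and 6.38 in basal arrays 1 to 4 and 13.27, 13.65 and 12.50 in luminal arrays 1 to 3. The basal arrays spread widely and none came near the luminal arrays, for a difference of 6.21 (SE 0.56, adjusted p = 4.72e-06). Dmbt1, a scavenger receptor protein of mucosal secretions, had levels of 6.31, 7.43, 6.60 and 8.89 in basal arrays 1 to 4 and 12.80, 12.33 and 13.45 in luminal arrays 1 to 3. Basal array 4 was the highest basal array, and the difference was 5.55 (SE 0.91, adjusted p = 0.000451). The lectin gene Reg3g (4.94), the haptoglobin gene Hp (4.88) and the fibrinogen gene Fgb (4.88) were higher as well, the first 2 with basal means at the dim end. Ltf, the iron-binding milk protein lactoferrin, differed by 3.79, the whey acidic protein relative Wfdc2 by 4.28, and the mucin gene Muc1 by 2.28. Wfdc2 was counted with the protease inhibitors and Muc1 with the milk proteins. As a whole the family of mucins, lectins and defence proteins was balanced, with 17 higher (15.9%) and 17 lower (15.9%) of 107. On the basal side were Il17b (-5.49), with its luminal mean at the dim end, and the chemokine genes Cxcl14 (-4.43) and Cxcl12 (-3.60). The midkine gene Mdk (-3.42), the galectin gene Lgals1 (-3.40) and the serpin gene Serpinf1 (-4.71, luminal mean at the dim end), which encodes an anti-angiogenic factor, were also basal. Of 12 genes in the milk protein family 4 were higher (33.3%) and 2 lower (16.7%). The 2 lower ones, Cd59a (-1.34) and Cd59b (-1.19), were placed there by the symbol pattern and are not milk protein genes. The milk fat globule protein gene Btn1a1 (3.55) was higher. The casein gene Csn2 was 10.42, 10.23 and 6.90 in luminal arrays 1 to 3, against 11.58, 10.18, 8.78 and 6.04 in basal arrays 1 to 4, varied by several units within each group, and did not pass (difference 0.04 (SE 1.28, adjusted p = 0.986)).

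The largest luminal rises among transporters were carriers, a water channel and cation channels, and the largest basal ones were channels and channel subunits. Slc5a5, the sodium-iodide symporter that concentrates iodide for milk, had levels of 7.35, 8.33, 8.53 and 7.66 in basal arrays 1 to 4 and 13.83, 13.90 and 13.22 in luminal arrays 1 to 3. The groups were far apart, with a difference of 5.68 (SE 0.32, adjusted p = 1.35e-07), 51.4-fold. Slc44a4, a choline-like and thiamine pyrophosphate transporter whose promoter is printed here, had levels of 7.28, 7.23, 7.56 and 7.17 in basal arrays 1 to 4 and 12.47, 12.99 and 12.85 in luminal arrays 1 to 3. It differed by 5.46 (SE 0.16, adjusted p = 5.39e-09). Aqp5, a water channel of glandular epithelia, had levels of 8.44, 9.05, 8.77 and 8.39 in basal arrays 1 to 4 and 13.67, 13.48 and 13.23 in luminal arrays 1 to 3. Its difference was 4.80 (SE 0.19, adjusted p = 1.25e-08). The touch-sensitive cation channel gene Piezo2 (5.25, basal mean at the dim end), the sulfonylurea receptor gene Abcc8 (4.79), Slc46a3 (4.12) and the cation channel gene Trpc6 (3.97) were also higher.

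Channels of the basal side included several known from smooth muscle. Kcnmb1, the smooth muscle beta subunit of the BK potassium channel, had levels of 11.54, 10.86, 11.57 and 11.14 in basal arrays 1 to 4 and 5.34, 5.39 and 5.53 in luminal arrays 1 to 3. The luminal arrays lay close together at the dim end, and the difference was -5.86 (SE 0.17, adjusted p = 5.39e-09). Cacna2d1, an auxiliary subunit of voltage-gated calcium channels, had levels of 11.06, 10.87, 10.82 and 10.88 in basal arrays 1 to 4 and 5.57, 5.06 and 5.74 in luminal arrays 1 to 3. It differed by -5.45 (SE 0.17, adjusted p = 5.53e-09). Scn7a, a sodium channel that senses sodium level, had levels of 12.15, 12.84, 12.74 and 12.83 in basal arrays 1 to 4 and 7.79, 5.69 and 8.19 in luminal arrays 1 to 3. The luminal arrays spread widely, all below the basal arrays, with a difference of -5.42 (SE 0.48, adjusted p = 4.01e-06). The potassium channel gene Kcnq5 (-5.04) and the T-type calcium channel gene Cacna1g (-4.59) had luminal means at the dim end, and the kainate receptor gene Grik3 differed by -4.55. Connexins and pannexins had 4 lower (26.7%) and 0 higher of 15 in limma at an adjusted p under 0.05 (0 higher also at an unadjusted p under 0.05). Of all genes 19.7% were lower and 24.6% higher. Gjc1 was at -3.58 (luminal mean at the dim end) and Panx1 at -3.56. Lrrc8c, a subunit of the volume-regulated anion channel, differed by -4.29.

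**Figure D5:**
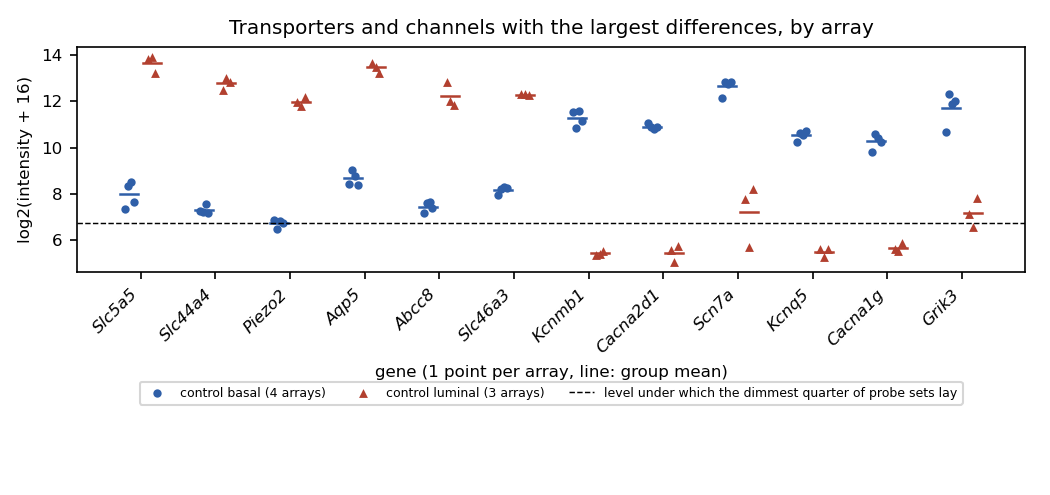
Level, as log2(intensity + 16), of the 6 transporter and channel genes with the largest rises and the 6 with the largest falls, in each control basal array (blue circles) and control luminal array (red triangles), with group means as lines and the level of 6.74 dashed. The groups are apart for all 12 genes, and the luminal arrays of Kcnmb1, Cacna2d1, Kcnq5 and Cacna1g lie under the dashed level.

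Among transporter families the ATPase ion pumps had the highest share of luminal rises, with 28 higher (44.4%) and 7 lower (11.1%) of 63. Of these 3 and 1 were at least 4-fold apart. Of all genes tested 24.6% were higher and 19.7% lower. Fxyd2, the regulatory gamma subunit of the sodium pump, was 12.08, 11.31 and 11.64 in luminal arrays 1 to 3, against 7.68, 8.04, 8.16 and 7.97 in basal arrays 1 to 4, and differed by 3.71 (SE 0.20, adjusted p = 8.74e-08), while its relative Fxyd1 was lower, at -2.33 (luminal mean at the dim end). Atp6v1b1, a proton pump subunit, was higher, at 2.75. Mitochondrial carriers had 16 higher (39%) and 3 lower (7.32%) of 41. The calcium-regulated carrier gene Slc25a23 was at 2.65 and the ADP/ATP carrier gene Slc25a4 on the other side, at -0.95. Chloride channels and aquaporins had 14 higher (32.6%) and 6 lower (14%) of 43, with 7 and 1 at least 4-fold apart. Slc12a2, the sodium, potassium and chloride importer of secretory epithelia, was bright in both, at 11.54 to 11.79 in basal and 13.96 to 14.21 in luminal arrays, and higher by 2.42 (SE 0.15, adjusted p = 3.01e-07). Amino acid carriers leaned to the basal side, with 21 lower (38.9%) and 11 higher (20.4%) of 54. The cationic amino acid carrier gene Slc7a2 was higher by 2.62. Slc43a3, placed in this family by its symbol alone, was lower, at -3.89. ABC transporters had 13 higher (34.2%) and 12 lower (31.6%) of 38, both shares above those of all genes. The counts were 12 and 12 after quantile normalization and 9 and 11 without luminal array 2. The lipid exporter gene Abca3 was at 3.12 and the drug efflux pump gene Abcb1b at -3.35 (luminal mean at the dim end).

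Of the 6 members of the enzyme class with the largest luminal rises 3 were proteases. The family of membrane and intracellular proteases as a whole, with 30 higher (24%) and 23 lower (18.4%) of 125, was near the shares of all genes. Capn8, a calpain of gastric epithelium, had levels of 6.66, 6.97, 6.92 and 6.96 in basal arrays 1 to 4 and 13.13, 11.47 and 12.92 in luminal arrays 1 to 3. The difference was 5.63 (SE 0.32, adjusted p = 1.37e-07). Ctse, the intracellular aspartic protease cathepsin E, had levels of 6.33, 7.13, 8.96 and 7.67 in basal arrays 1 to 4 and 12.75, 13.59 and 12.53 in luminal arrays 1 to 3. The basal arrays spread widely, all below the luminal arrays, with a difference of 5.44 (SE 0.50, adjusted p = 5.48e-06). Tmprss2, a membrane serine protease, had levels of 7.96, 7.98, 7.41 and 8.36 in basal arrays 1 to 4 and 12.34, 12.50 and 12.39 in luminal arrays 1 to 3. It differed by 4.48 (SE 0.20, adjusted p = 2.6e-08). The phosphatase gene Mtmr7 (4.76) and Gpx3 (3.80), a secreted glutathione peroxidase, were also higher. Aoc1 (6.68), Ido1 (5.92) and Dpep2 (5.73) are enzymes that the symbol patterns left out of the class. Within the class Cyp3a57 had the largest difference, 6.57, with its basal mean at the dim end. It belongs to a cluster of near-identical cytochrome P450 genes, so which of them gave the signal is uncertain.

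Basal enzymes with the largest differences acted on contraction, lipids and glycosaminoglycans. Mylk, the myosin light chain kinase that drives smooth muscle contraction and whose promoter is printed here, had levels of 11.60, 11.85, 11.86 and 11.62 in basal arrays 1 to 4 and 6.37, 5.71 and 6.70 in luminal arrays 1 to 3. The basal arrays lay close together, the luminal arrays at the dim end, and the difference was -5.47 (SE 0.20, adjusted p = 9.23e-09). Pla2g7, the phospholipase that inactivates platelet-activating factor, had levels of 11.37, 11.23, 11.57 and 11.15 in basal arrays 1 to 4 and 5.86, 5.50 and 6.47 in luminal arrays 1 to 3. It differed by -5.39 (SE 0.23, adjusted p = 1.95e-08). Elovl4, which elongates very long chain fatty acids, was 6.16, 6.29 and 8.57 in luminal arrays 1 to 3, against 12.13, 11.83, 11.25 and 11.62 in basal arrays 1 to 4, with luminal array 3 above the other luminal arrays, and went from -4.70 to -5.49 without that array. The chondroitin sulfotransferase gene Chst11 (-4.68), the heparan sulfotransferase gene Hs6st2 (-4.51) and the proprotein convertase gene Pcsk5 (-4.38) had luminal means at the dim end.

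By family, synthesis of fatty acids, triglycerides and sterols leaned to the luminal side, with 26 higher (40.6%) and 9 lower (14.1%) of 64. Of all genes tested 24.6% were higher and 19.7% lower. The family median was 0.48. Elovl7 (2.83) and the phosphatidate phosphatase gene Lpin2 (1.90) were higher, and the sterol demethylase gene Cyp51 (-1.59) was lower. Aldehyde and alcohol dehydrogenases and reductases had 27 higher (43.5%) and 11 lower (17.7%) of 62, the share lower being near that of all genes. Aldh1a3, which makes retinoic acid, was 10.58, 9.64 and 12.04 in luminal arrays 1 to 3, against 7.76, 8.28, 7.77 and 8.32 in basal arrays 1 to 4, and differed by 2.72 (SE 0.45, adjusted p = 0.000448), while its relative Aldh1a1 was lower, at -2.67 (luminal mean at the dim end). Enzymes of central carbon metabolism had 25 higher (36.2%) and 8 lower (11.6%) of 69. Among them pyruvate carboxylase (Pcx) was at 3.28, the transaminase gene Got1 at 2.48 and the lactate dehydrogenase gene Ldhb at -2.52. Enzymes that modify histones and DNA had 33 higher (34%) and 15 lower (15.5%) of 97, a share called of 49.5% that is near the 44.3% of all genes, with the histone deacetylase gene Hdac11 at 1.97 and Tet1, which oxidises methylated cytosine, at -2.01. On the basal side, glycosyltransferases and sulfotransferases of glycans had 49 lower (38.9%) and 30 higher (23.8%) of 126, with 18 and 4 at least 4-fold apart. Carbonic anhydrases had 4 lower (33.3%) and 1 higher (8.33%) of 12 (2 higher without luminal array 3), beside 19.7% and 24.6% of all genes. Collagen-modifying enzymes had 12 lower (44.4%) and 4 higher (14.8%) of 27. Among them the lysyl oxidase relative Loxl3 (-4.0) and the lysyl hydroxylase gene Plod2 (-3.76) had luminal means at the dim end. The transglutaminase gene Tgm2 (2.45) was higher. Cyclic nucleotide enzymes had 14 lower (40%) and 2 higher (5.71%) of 35, the latter count being 1 without basal array 2 or 4 or luminal array 1 or 2. Gucy1b1, a subunit of the nitric oxide receptor cyclase, differed by -3.44 with luminal arrays at the dim end (-2.24 with a pseudocount of 64), and Prkg1, the cyclic GMP-dependent kinase of smooth muscle, was 6.54, 6.66 and 6.53 in luminal arrays 1 to 3, against 10.49, 10.55, 10.59 and 10.60 in basal arrays 1 to 4, a difference of -3.99 (SE 0.12, adjusted p = 5.39e-09) with the luminal mean at the dim end. Protein kinases as a whole had 63 higher (26.9%) and 62 lower (26.5%) of 234, and 62 and 64 after quantile normalization. The share higher was near the 24.6% of all genes, and the share lower was above their 19.7%.

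Bright genes in each class did not pass the test. Among factors, Tgif1 and the immediate early gene Egr1 had differences of 0.14 (adjusted p = 0.518) and 0.18 (adjusted p = 0.29). Among receptors, the cytokine receptor subunits Il6st and Lifr had differences of -0.11 and -0.16, each smaller than its SE, and the integrin gene Itgav one of -0.16. Among secreted proteins, Mfge8, a milk fat globule protein, had a difference of -0.35 (SE 0.18, adjusted p = 0.147). Among transporters, Atp2a2, the calcium pump of the endoplasmic reticulum, had one of -0.28 (SE 0.12, adjusted p = 0.0768), and among enzymes Txn1, thioredoxin, one of 0.11. A p that misses the threshold does not show that these levels are equal.

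The mutant basal arrays, which entered neither group mean, lay on the basal side for most of these genes. Of the 732 genes lower by at least 4-fold in luminal cells, all 3 SSKO basal arrays were above all 3 luminal arrays in 728 (99.5%). Of the 417 genes higher by that much, they were below in 413 (99%). These shares set the mutant arrays against the same luminal arrays that chose the genes, so they are a description with no test.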

How the data were processed

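RNA of sorted mammary cells was measured on 10 Affymetrix arrays. For 28815 probe sets, the deposited table gives linear intensity values in 10 columns, 1 per array. Affymetrix Expression Console 1.1 and PLIER 2.0 are named, per the submitters' processing notes, with no statement of their roles. Any normalization between arrays was not given in the sources used here. Array medians lay between 205 and 228. The number of arrays limits the precision, and no scan date or batch was given.

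Values were taken as log2(intensity + 16). Probe sets in the lowest 25% by mean level over all 10 arrays were removed, leaving 21611. Names came from the platform annotation: 21780 probe sets had 1 symbol, 1605 several and 5430 none, and probe sets with several or none were not used. Of the single symbols 21692 matched the current RefSeq gene table and 88 kept the annotation's name. The brightest probe set stood for a gene, a choice that mattered for 821 genes. A model with 3 group means, SSKO basal included so that all groups share 1 estimate of the spread, was fitted to 10 arrays with limma 3.58.1 in R 4.3.3 (lmFit, eBayes), two-sided, with Benjamini-Hochberg adjustment over 15814 genes. The fit was tested on simulated data. Classes and their 70 families were assigned by symbol pattern, each gene to 1 family, so membership follows names. A few members, such as intracellular FGF homologues, Cd59a and Cd59b, do not share the usual function of their class or family. Some enzymes and secreted proteins, such as Aoc1, Ido1, Dpep2, Olfm4 and Reln, fall in no class. Classes, marker lists and named genes were chosen with earlier results of these data known, so list counts carry no test. Named genes were, among called genes with no overlap of the groups, the 10 largest rises and falls of all, the 6 of each class, the 2 of each family, the 3 brightest uncalled genes of each class, and markers. Predicted gene models and small RNA genes were not named. Motifs were counted in the RefSeq promoter table. Python 3.11.15 and matplotlib 3.10.9 drew the figures. Alternatives changed the pseudocount, the filter, the scaling, the arrays fitted, the variance model, the choice of probe set and the replicate block, and left out arrays.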

Additional observations from a re-analysis of the deposited data

Results flagged for a closer look

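In the 4 control basal arrays, 1 array stood apart from the other 3 by Dixon's gap for 10 of the 183 named genes, where chance flags about 1 in 20; the luminal group of 3 was not examined this way. Basal array 1 was lowest for Capn8 (6.66, others 6.92 to 6.97), Egfr (11.15, others 11.56 to 11.62) and Scn7a (12.15, others 12.74 to 12.84). Basal array 2 was highest for Ephb1 (10.31, others 9.93 to 9.97) and Ntn1 (8.95, others 8.58 to 8.60). Basal array 3 was lowest for Fst (12.37, others 12.66 to 12.69) and Lgr5 (10.84, others 11.76 to 11.93). Basal array 4 was highest for Fgb (8.71, others 7.48 to 7.58) and Krt5 (13.55, others 13.20 to 13.22) and lowest for Reg3g (5.11, others 5.71 to 5.76). In each case the array stayed on its own side of all 3 luminal arrays.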

How the results depend on the processing

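Counts over all genes and over each class stayed within 1.5 times the reported count under every alternative of processing and array choice run, apart from the stricter rule. Under that rule, called and at least 4-fold apart, the counts were 13 higher and 24 lower transcription factors, 11 and 56 receptors, 34 and 125 secreted proteins, 46 and 39 transporters, and 49 and 83 enzymes. Leaving out 1 array at a time, or luminal array 3 with basal array 1, gave 3288 to 4005 genes higher and 2694 to 3055 lower. Higher calls were 55.5% of all calls, and 54.3% after quantile normalization and 58.7% after median centring. With the replicate block 3880 genes were higher and 3081 lower. Deviations of same-numbered basal and luminal control arrays from their group means had correlations of -0.08, -0.08 and -0.06. Those of differently numbered ones went from -0.31 to 0.39. Same-numbered control basal and SSKO basal arrays had correlations of 0.63, 0.46 and 0.05. Whether any arrays share a litter or a sorting day was not tested. Of 70 families, 29 had a count that moved by over 1.5 times in 1 or more alternatives. Of 183 named genes, 171 were tested in all 19 alternatives and 168 of these kept their side of the threshold. The other 12, which a filter on the dimmest 50% removed, kept theirs in the remaining 18. The exceptions were Lama5, Mfge8, which passed with the block and without basal array 4 (-0.48 in both), and Atp2a2, which passed after quantile normalization (-0.36) and with a variance trend (-0.28). The cause was not tested. No direction of a called named gene turned, and the differences of 6 moved by over 1.5 times. Differences of genes at the dim end are limited by signal over background.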
